A study of Mus musculus with 36 samples.

Results

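The RNA change under continued depolarisation was measured in mouse cortical neurons (CNs) that had been in KCl for 6 h, compared directly with CNs that had been in KCl for 1 h. These were 4 of the 36 samples of the series, 2 libraries labelled A and B at each time, and were chosen by their labels alone. Cortical tissue of CD-1 embryos at embryonic day 15 was pooled over all embryos and cultured for 7 days. Every group was first silenced for 2 h with 100 μM AP-5, which blocks NMDA receptors, and 1 μM TTX, which blocks voltage-gated sodium channels. The CNs then received 55 mM KCl for 1, 6 or 10 h, 10 ng/ml BDNF for 1, 6 or 10 h, or stayed unstimulated (6 control RNA libraries, 2 for each time). The remaining 18 samples were ATAC-seq libraries of the same conditions. The comparison asks which transcripts decay and which build up while the depolarising stimulus is still present.

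A raised extracellular potassium concentration depolarises the neuronal membrane, opens voltage-gated calcium channels and activates calcium-dependent kinases that phosphorylate transcription factors already present in the cell. A first wave of immediate early genes, many of which encode transcription factors, is then transcribed without new protein synthesis, and its mRNAs are typically short-lived. A later wave, which depends in part on the proteins of the first, includes secreted factors, ion channels and synaptic proteins. A fall between 1 h and 6 h therefore joins a drop in synthesis with mRNA decay, and in bulk RNA fewer cells of a type and less RNA per cell cannot be told apart.

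The 4 KCl libraries held 10.6 M and 11.9 M reads in genes at 1 h and 13.3 M and 11.5 M at 6 h. Values are given as normalised counts, in which 1 read was worth about 1 unit (0.983 to 1.235 over these libraries). Library B at 6 h stood apart from its partner and from the other 16 RNA libraries in RNAs that carry no or little poly(A) tail. The locus Gm42418, which overlaps ribosomal RNA sequence, was at 15629.5 and 435267 normalised counts in the A and B libraries at 6 h and at 5524 and 6046 at 1 h. The nuclear RNA Malat1 was at 13361 and 34816 at 6 h, and Rn7s1, an RNA of the signal recognition particle, at 16.7 and 245. The part of this library in the counts was not tested beyond leaving it out, and the counts with and without it are given below. Neuronal markers were high in every KCl library, and their summed level over 8 genes was 79334 to 85978 at 1 h and 65425 to 74879 at 6 h, against 72786 to 81583 in the controls.

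Of 16209 genes tested, 9656 differed between 6 h and 1 h of KCl at a limma adjusted p below 0.1, which is 59.6% of all genes tested. The directions were nearly balanced, with 5006 genes higher and 4650 lower at 6 h. Most changes were small, and the called genes had a median absolute log2 fold change of 0.62 (1.54-fold). A change of at least 2-fold was found for 1136 genes that rose (7.01% of those tested) and 1229 that fell (7.58%), and these are called risen and fallen genes in what follows. Without library B at 6 h, 8466 genes were called, of which 1162 rose and 1239 fell at least 2-fold. Without library A at 6 h, 9490 genes were called. The controls of 6 h and of 1 h, compared in the same way, gave 0 calls by limma, by edgeR and by DESeq2, with 164, 233 and 56 genes at an unadjusted p under 0.05.

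**Figure D1:**
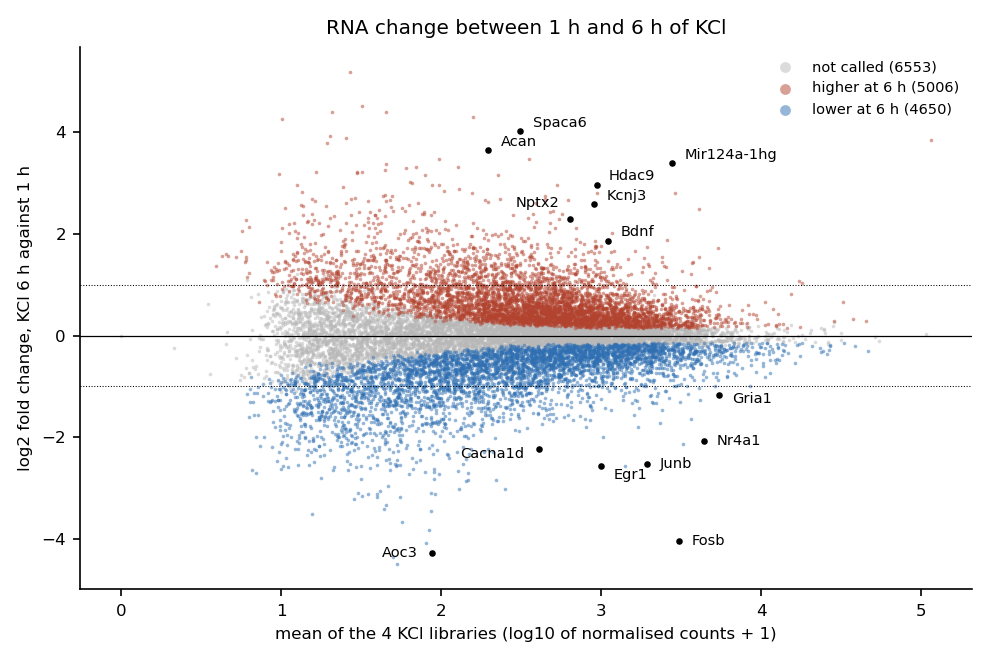
Each point is 1 of 16209 genes. The x axis is the mean of the 4 KCl libraries (log10 of normalised counts + 1) and the y axis the log2 fold change at 6 h against 1 h, with dotted lines at 2-fold. Genes called higher are red (5006), genes called lower blue (4650), and the labelled genes include Fosb far below and Mir124a-1hg and Hdac9 far above genes of like level.

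Most immediate early transcription factors fell. Of 30 tested members, 20 were called lower, 2 higher and 8 did not pass, against 28.7% lower and 30.9% higher among all genes tested, and 11 fell at least 2-fold. The median log2 fold change of the list was -0.87, against 0.02 over all genes. Fosb, a partner of Jun proteins in the AP-1 factor, was at 5421 and 6088 normalised counts in the A and B libraries at 1 h and at 344 and 360.0 at 6 h, while the 6 controls ranged from 4.93 to 10.8 (median 6.40). The libraries of the 2 times did not overlap, and the log2 fold change was -4.02 (SE 0.27, limma adjusted p = 1.01e-10). Read as a steady exponential change over the 5 h between the times, this is a net halving every 1.24 h. At 10 h Fosb had dropped further to 75.8 and 94.8, still above every control.

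Other members of this list took the same course at different speeds. Egr2, a zinc-finger factor, was at 253 and 209 at 1 h and at 29.5 and 25.5 at 6 h (log2 fold change -3.02, SE 0.22, limma adjusted p = 3.03e-10). Klf4, a Krüppel-like factor, went from 369 and 519 to 55.1 and 52.1 (log2 fold change -3.01, SE 0.24), just above the controls at 32.00 to 51.6 (median 39.8). Egr1 went from 1590.4 and 1838 to 312 and 266, and its controls were at 194 to 247 (median 225). Egr1 was therefore close to its resting level by 6 h, whereas Fosb was not. The following members were picked after their values were seen. Junb, which encodes an AP-1 subunit, was at 3586 and 3033 at 1 h and 669 and 489 at 6 h. Nr4a1, an orphan nuclear receptor, was at 7748 and 6378 at 1 h and 1684 and 1681 at 6 h, with controls at 50.9 to 64.4 (median 55.9). Fos was at 5742 and 5274 at 1 h and 1727 and 1809 at 6 h. All of these remained far above their controls at 6 h.

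For some immediate early factors no difference passed the test. Fosl2 was at 5101 and 2971 at 1 h and 4148 and 3555 at 6 h, with controls at 1119 to 1415 (median 1305) (log2 fold change -0.02, SE 0.19, limma adjusted p = 0.941). Crem, which encodes activators and repressors that bind cAMP response elements, was at 605 and 449 and then 542 and 662 (log2 fold change 0.20, SE 0.16, limma adjusted p = 0.293), against controls at 105 to 144 (median 116). Myc and Klf6 were the 2 members called higher, and Myc, picked after its values were seen, rose from 542 and 407 to 881 and 773. Npas4, a neuronal factor also picked after its values were seen, was uneven between the 1 h libraries (5258 and 2487) and even at 6 h (1908 and 1735). Its log2 fold change was -0.99 (SE 0.34, limma adjusted p = 0.0244). Against the controls, both libraries lay above all 6 controls for 25 of the 30 factors at 1 h, for 23 at 6 h and for 22 at 10 h, and below all 6 for 1, 6 and 6. Over all genes tested, the shares at 1, 6 and 10 h were 26.4%, 30.2% and 28.4% above and 27.2%, 29.4% and 26.4% below. Of the 20 factors called lower, 18 were above all controls at 1 h, and 16 were above and 4 below at 6 h.

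**Figure D2:**
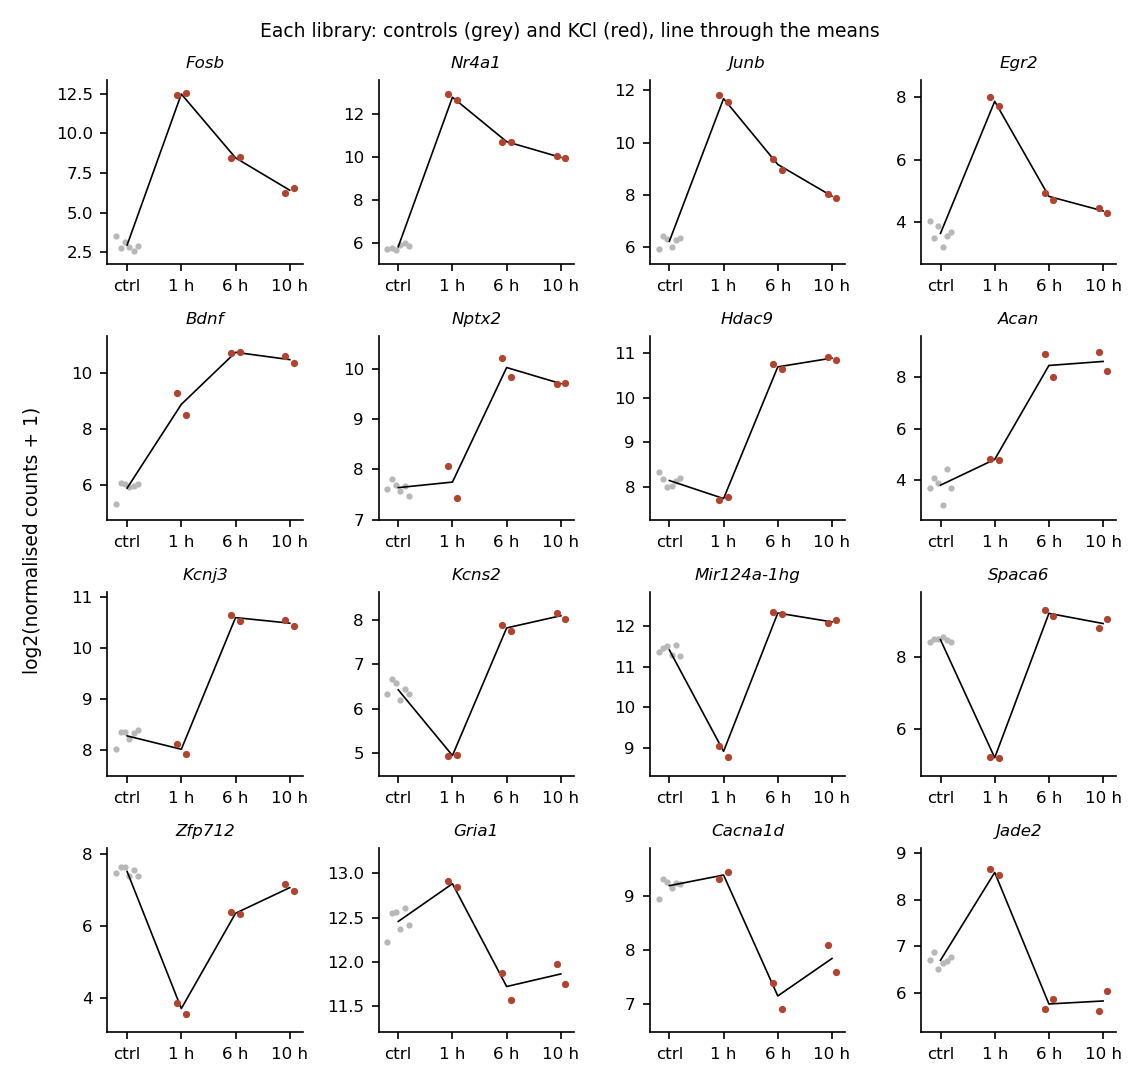
Each panel shows 1 gene, with the 6 controls in grey, the 2 KCl libraries of each time in red and a line through the means, on the scale log2(normalised counts + 1) with evenly spaced time categories. The top row falls after 1 h (Fosb, Nr4a1, Junb, Egr2), the second row and Kcnj3 build up, Kcns2, Mir124a-1hg, Spaca6 and Zfp712 dip at 1 h and then rise, and Gria1, Cacna1d and Jade2 end below their controls.

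The activity-regulated synaptic and signalling effectors went in both directions. Of 23 tested members, 9 were called higher and 6 lower, against 30.9% higher and 28.7% lower among all genes tested. The median log2 fold change was 0.07, against 0.02 over all genes. The same shares over all genes apply to the lists that follow, and a list count near them does not set that list apart. Nptx2, a secreted pentraxin that gathers AMPA receptors, was at 267 and 171 at 1 h, with 1 library above and 1 below its controls of 176 to 223 (median 198), and at 1185 and 916 at 6 h (log2 fold change 2.28, SE 0.15, limma adjusted p = 4.08e-10). Gpr3, a receptor that raises cAMP without a ligand, was at 87.7 and 21.4 at 1 h and 402 and 389 at 6 h (log2 fold change 3.15, SE 0.43). The 2 libraries at 1 h differed for both genes, and neither overlapped the 6 h libraries. Kcnj4, an inward rectifier, went from 368 and 276 to 1147 and 934, and Rgs4, which speeds the turning off of G proteins, from 1064 and 557 to 2609 and 2272. In the other direction, Sik1, a kinase that restrains CREB coactivators, went from 3202 and 3848 to 1206 and 1344 (log2 fold change -1.46, SE 0.10). The postsynaptic genes Homer1 and Arc were picked after their values were seen. Homer1 fell from 5433 and 4155 to 2106 and 2191, and Arc fell from 182 and 141 to 118 and 89.1 (log2 fold change -0.64, SE 0.19, limma adjusted p = 0.00689).

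Secreted factors and neuropeptides built up. Of 22 tested members, 15 were called higher, 1 lower and 6 did not pass, 9 rose at least 2-fold, and the median log2 fold change was 0.81. Bdnf, the neurotrophin itself, was at 619.9 and 356 at 1 h and at 1704 and 1721 at 6 h, with controls at 38.5 to 65.1 (median 62.5) (log2 fold change 1.86, SE 0.23, limma adjusted p = 2.53e-06). It stayed at 1547 and 1318 at 10 h. Adcyap1, which encodes the peptide PACAP, went from 144 and 80.2 to 429 and 391 (log2 fold change 1.92, SE 0.29), and Cartpt, a neuropeptide precursor, from 22.2 and 12.8 to 79.6 and 118 (log2 fold change 2.45, SE 0.55). Crh, the corticotropin-releasing hormone, was at 13.6 and 0 at 1 h and 97.3 and 64.8 at 6 h, with controls at 0 to 3.92 (median 2.30). Vgf and Scg2, granin-like proteins of dense-core vesicles that were picked after their values were seen, rose from 2792 and 1526 to 6736 and 5310.1 and from 2558 and 1557 to 5865 and 4838. Pdyn, the prodynorphin gene, was the 1 member called lower (50.6 and 42.8 at 1 h and 30.5 and 32.4 at 6 h). At 6 h both libraries lay above all 6 controls for 19 of the 22 members, compared with 13 at 1 h. Of all genes tested, 30.2% lay above at 6 h and 26.4% at 1 h.

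The inhibitors of MAP kinase signalling were divided by member, with 7 of 16 called higher and 5 lower. Spred3 rose from 451 and 404 to 1516 and 1354 (log2 fold change 1.74, SE 0.09), Spry4 from 324 and 149.7 to 473 and 448 and Dusp5 from 71.6 and 50.3 to 116 and 122. Spred and Sprouty proteins act on the pathway at or above Raf. The called falls were all in dual-specificity phosphatases, and Dusp6, picked after its values were seen, went from 877 and 777 to 459 and 515. Among 27 tested genes of AU-rich element binding and deadenylation, 9 were higher and 11 lower, against 30.9% and 28.7% of all genes tested. Zfp36, which brings deadenylases to AU-rich mRNAs, fell from 95.1 and 106 to 39.3 and 59.04 (log2 fold change -1.04, SE 0.35, limma adjusted p = 0.0155), and this call was lost without library A at 6 h (log2 fold change -0.75, limma adjusted p = 0.133). Parn, a poly(A) ribonuclease, fell from 304 and 323 to 112 and 125, below its controls of 269 to 347 (median 295). Btg2, which binds deadenylases, rose from 233 and 174 to 611 and 802, having been at 576 to 795 (median 692) in the controls.

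Potassium channel genes moved in both directions. Of 40 tested, 17 were called higher and 11 lower, against 30.9% and 28.7% of all genes tested. By at least 2-fold, 9 rose and 3 fell, against 7.01% and 7.58% of all genes. The falls were thus near the share of all genes, and the 2-fold rises were above it. Kcns2, a modulatory subunit, was at 29.6 and 29.9 at 1 h, below its controls of 72.6 to 101 (median 83.00), and at 237 and 214 at 6 h (log2 fold change 2.88, SE 0.18, limma adjusted p = 3.45e-11). Kcna4, an A-type channel, went from 121 and 109 to 857 and 692 (log2 fold change 2.73, SE 0.12). Kcnj3 and Kcnj6, whose products form the G-protein-gated inward rectifier, went from 274 and 241 to 1613 and 1483 and from 32.1 and 39.6 to 185 and 164. Kcna4, Kcnj3 and Kcnj6 had been within or just below the control range at 1 h, and all 4 genes were above every control at 6 h. Kcnb2 and Kcnt1, picked after their values were seen, fell from 149 and 108 to 56.04 and 28.9 and from 425 and 370.0 to 177 and 137.

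Calcium channel and glutamate receptor genes mostly fell. Of 18 tested calcium channel genes, 13 were called lower and 3 higher, with a median log2 fold change of -0.47. Cacna1d, a pore subunit of L-type channels, was at 639.6 and 700.4 at 1 h and 168 and 119 at 6 h, with controls at 494 to 640.0 (median 603) (log2 fold change -2.23, SE 0.16, limma adjusted p = 6.51e-10). The 3 members called higher, Cacnb1, Cacnb2 and Cacnb4, all encode auxiliary beta subunits. Without library B at 6 h, 9 members were called lower and 4 higher. Of 16 AMPA, NMDA and kainate receptor subunits, 10 were called lower and 4 higher (7 and 4 without library B at 6 h). Gria1, an AMPA receptor subunit, went from 7725 and 7391 to 3749.8 and 3041 (log2 fold change -1.16, SE 0.11), where the controls were at 4788 to 6266 (median 5742). Grin2a, an NMDA receptor subunit, rose from 45.7 and 25.7 to 72.8 and 63.7, a call that was lost without library B at 1 h (log2 fold change 0.56, limma adjusted p = 0.107). Calcium pumps, exchangers and stores were called lower in 9 and higher in 6 of 19, and Atp2b3, a plasma membrane pump, went from 470.5 and 421 to 193 and 120.4 while Orai1, the pore of store-operated entry, rose from 61.7 and 83.4 to 218 and 263.

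GABA-A receptor subunits were called higher in 8 and lower in 3 of 12 cases, with a median log2 fold change of 0.47. Gabra4 went from 493 and 441 to 1441 and 1470.2 (log2 fold change 1.64, SE 0.09, limma adjusted p = 9.56e-12) and Gabra5 from 721 and 701 to 1499 and 1501, and both had been near their controls (462 to 556 (median 504) and 582 to 709 (median 657)) at 1 h. Synaptic adhesion and scaffold genes were lower in 14 and higher in 10 of 30, against 28.7% and 30.9% of all genes tested. Nlgn3, a neuroligin, went from 1048 and 1202 to 460.1 and 568. Genes of presynaptic release were higher in 10 and lower in 8 of 32, with Vamp1 rising from 104 and 99.4 to 273 and 266 and Syn3 falling from 369 and 372 to 137 and 97.2. Sodium channels (2 higher and 3 lower of 8), CaM kinase and calcineurin genes (7 and 10 of 20) and axon guidance genes (14 and 14 of 40) had no common direction.

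Set against the controls, KCl changed 8863 genes at 1 h (54.7% of those tested, 26.5% higher and 28.2% lower) and 10779 at 6 h (66.5%, 33.4% higher and 33.1% lower). Changes of at least 2-fold from the controls were 2.97% higher and 5.54% lower at 1 h, and 4.55% higher and 8.42% lower at 6 h. These comparisons share libraries with that of 6 h against 1 h. Fallen genes were not in the main genes that KCl had induced. Both 1 h libraries lay above all 6 controls for 423 of the 1229 fallen genes (34.4%, against 26.4% of all genes tested), among the controls or split around them for 661, and below all controls for 145. By 6 h both libraries lay below all 6 controls for 939 fallen genes (76.4%, against 29.4% of all genes tested). The commonest course, seen in 610 fallen genes, was a level not separated from the controls at 1 h and below all controls at 6 h. In 184 genes the level was above all controls at 1 h and below all of them at 6 h. In 64 genes it was above all controls at both times, as for Fosb and Nr4a1. Since the rule set 1 h against 6 h, these counts describe the genes and were not tested. The libraries of 10 h lay below all controls for 837 fallen genes (68.1%, against 26.4% of all genes) and above all controls for 28. They entered the comparison only through the spread and the filter on low values, both taken over all 18 RNA libraries.

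Jade2, which encodes a chromatin-associated protein and was among the largest falls, shows the course that crossed the controls. It was at 90.1 to 118 (median 103) in the controls, at 403 and 368 at 1 h, at 49.2 and 57.9 at 6 h and at 47.7 and 65.3 at 10 h (log2 fold change from 1 h to 6 h -2.83, SE 0.16, limma adjusted p = 1.24e-11). Zmat1, a zinc-finger gene, was below its controls of 210.3 to 245 (median 231) already at 1 h (157 and 151) and fell further to 15.7 and 18.5 at 6 h, with 85.6 and 56.6 at 10 h. Both genes were thus lower at 6 h than they had been before stimulation.

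Risen genes showed 2 main courses. Both 1 h libraries lay below all 6 controls for 754 of the 1136 risen genes (66.4%, against 27.2% of all genes tested), and above them for 60. Of those 754 genes, 301 were again not separated from the controls at 6 h, 320 were above all controls and 133 were still below. A further 278 genes were not separated from the controls at 1 h and were above all of them at 6 h. The 10 h libraries lay above all controls for 579 risen genes (51.0%, against 28.4% of all genes) and below for 134. Since the rule set 1 h against 6 h, it favours a low 1 h level among risen genes. The counts at 1 h and 6 h describe the genes and were not tested. By these counts, a rise from 1 h to 6 h took in recovery from an early drop as well as accumulation above the resting level.

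**Figure D3:**
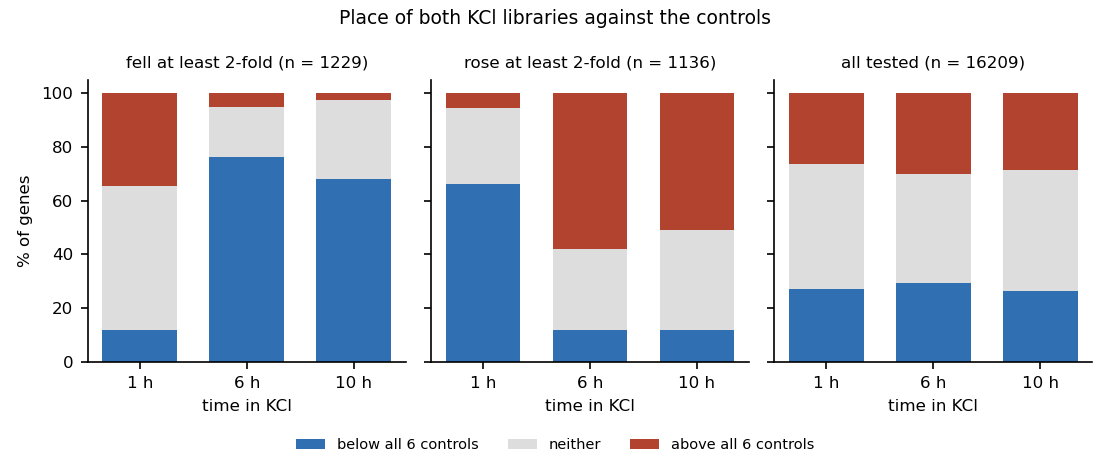
Bars give the percent of genes whose 2 KCl libraries both lay above all 6 controls (red), both below (blue) or neither (grey) at 1, 6 and 10 h. Of the 1229 fallen genes 76.4% were below all controls at 6 h, against 29.4% of all genes tested. Of the 1136 risen genes 66.4% were below at 1 h, against 27.2% of all genes tested. Fallen and risen genes were chosen by the change between the 1 h and 6 h libraries. The 10 h libraries entered that choice only through the spread and the filter on low values, both taken over all 18 RNA libraries.

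The drop followed by a rise was seen in several of the largest risers. Spaca6, a sperm membrane protein gene, had the largest rise among genes with a symbol and a mean of at least 100, from 35.8 and 35.3 at 1 h to 620.4 and 555 at 6 h (log2 fold change 4.01, SE 0.12, limma adjusted p = 1.45e-16), but its controls were at 338 to 372 (median 353). Mir124a-1hg, a host transcript of the neuronal microRNA miR-124, was at 2467 to 2973 (median 2717) in the controls, 533 and 444 at 1 h and 5174 and 4962 at 6 h (log2 fold change 3.38, SE 0.09). Neat1, the RNA scaffold of paraspeckles, was at 141 to 244 (median 171) in the controls, 12.3 and 18.2 at 1 h and 145 and 138 at 6 h. Cox17, a copper chaperone of cytochrome oxidase, was at 159 to 184 (median 173), then 13.6 and 12.8 and then 108 and 118. Chac1, which degrades glutathione, was at 78.8 to 98.7 (median 83.5), then 30.9 and 16.04 and then 236 and 226. Neat1 and Cox17 only regained or approached the control level by 6 h, whereas Mir124a-1hg, Chac1 and Spaca6 passed it.

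The numbered zinc-finger (Zfp) genes, most of which encode transcription factors, were the largest list with this course. Of 335 tested, 206 were called higher and 50 lower at 6 h, 92 rose and 17 fell at least 2-fold, and the median log2 fold change was 0.51. Both libraries lay below all 6 controls for 252 of them at 1 h (75.2%), for 186 at 6 h (55.5%) and for 162 at 10 h (48.4%). Over all genes tested these shares were 27.2%, 29.4% and 26.4%. The median log2 difference from the controls was -0.78 at 1 h and -0.35 at 6 h. Zfp712 was at 167 to 202 (median 183) in the controls, 13.6 and 10.7 at 1 h and 82.6 and 79.9 at 6 h (log2 fold change 2.65, SE 0.16, limma adjusted p = 2.9e-11), and reached 144 and 124 at 10 h. Zfp933 was at 258 to 307 (median 285), then 64.2 and 44.9 and then 364 and 310.2. Zfp457 went the other way, from 24.7 and 28.9 to 4.92 and 0. Zfp genes share similar sequence, and how reads that map to several copies were counted is not given in the sources used here.

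Acan and Mir670hg were above their controls at 1 h and rose far above them, while Hdac9 and Hcrtr2 lay below all 6 controls at 1 h and passed them by 6 h. Acan, the core proteoglycan of perineuronal nets, rose from 27.2 and 26.7 at 1 h to 470.0 and 258 at 6 h and stood at 507 and 297 at 10 h, with controls at 7.26 to 20.4 (median 12.9) (log2 fold change 3.64, SE 0.35, limma adjusted p = 5.22e-08). The A and B libraries differed at 6 h, yet both were far above every 1 h and control library. Hdac9, a class IIa histone deacetylase, went from 207 and 215 to 1724 and 1589 (log2 fold change 2.97, SE 0.12) and stayed at 1943 and 1856, with controls at 254 to 318 (median 282). Hcrtr2, an orexin receptor, went from 13.6 and 16.04 to 202 and 150.5, with controls at 26.96 to 41.1 (median 33.8). Mir670hg, a microRNA host transcript, went from 59.3 and 55.6 to 604 and 685, with controls at 34.8 to 48.9 (median 40.97). Hmcn2, an extracellular matrix gene, rose from 27.2 and 16.04 to 189 and 152 and was lower again at 10 h (59.9 and 87.1). Of 22 tested extracellular protease and matrix genes, 9 were called higher and 7 lower, and Hapln4, a link protein picked after its values were seen, fell from 143 and 137 to 99.3 and 52.1.

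Rn7s1, Rn7s2 and Rn7sk also met the rule for the largest rises, but their rise was mostly in library B at 6 h. Rn7sk stood at 14.8 and 13.9 after 1 h but at 33.4 and 352 after 6 h, and its log2 fold change of 2.84 (SE 0.86) became 1.17 without library B. Without that library the log2 fold change was 1.41 for Rn7s1 and 1.10 for Rn7s2, so all 3 still rose by at least 2-fold in library A alone. These 3 genes stay in the counts of risen genes but are not described among the largest risers.

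Stress and metabolic genes had mixed courses. Of 26 endoplasmic reticulum chaperone and unfolded protein response genes, 16 were called lower and 8 higher, with a median log2 fold change of -0.30. Hspa5, the main chaperone of that compartment, fell from 10892 and 11592 to 5428 and 5933 (log2 fold change -0.99, SE 0.09), with controls at 5797 to 7044 (median 6001), whereas Herpud1, a degradation component, rose from 575 and 539 to 986 and 1227. Of 26 amino acid transport and Atf4 target genes, 13 were higher and 3 lower, among them Slc7a3, a cationic amino acid transporter, from 100.0 and 95.2 to 295 and 298. The heat shock genes Hspa1a and Hspa1b, near-identical copies whose reads may be split between them, fell from 253 and 280.1 to 119.9 and 60.2 and from 419 and 483 to 194 and 115. Genes of cholesterol synthesis had a median log2 level 0.89 above the controls at 1 h and 0.92 above at 6 h, and between the times 9 of 22 were called higher and 4 lower.

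Apoptosis genes were called lower in 9 and higher in 3 of 21, and Hrk, a BH3-only gene, fell from 1215 and 1337 to 529 and 609 while Trp53inp1, a p53 target, rose from 477 and 405 to 1275 and 1431. Of 21 splicing kinases and SR proteins, 11 were higher and 6 lower. Srsf5, a splicing factor, rose from 2954 and 2456 to 6319 and 7125 (log2 fold change 1.32, SE 0.09) after a drop from controls at 4427 to 4805 (median 4622), and Clk2, a kinase of SR proteins, from 428 and 348 to 888 and 819.6. Circadian clock genes were higher in 8 and lower in 7 of 19, against 30.9% and 28.7% of all genes tested. Per2 rose from 335 and 276 to 653 and 598 and Rora fell from 243 and 241 to 99.3 and 105. Of 23 genes of CREB, CRTC and coactivators, 8 were higher and 8 lower, against the same shares of all genes. Hdac9 and Sik1 were the most changed of these. Alpha-arrestin and energy stress genes were higher in 5 and lower in 4 of 14, with Klf15 rising from 72.9 and 72.7 to 204 and 233 and Irs2 falling from 1062 and 1249 to 521 and 429.

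Large complexes of the cell changed little in size of effect. Of 80 cytosolic ribosomal protein genes, 34 were called higher and 5 lower, none by 2-fold, with a median log2 fold change of 0.21. This count rested on library B at 6 h, since 9 were called higher without it and 59 without library A. Respiratory chain genes of the nucleus (21 higher and 8 lower of 58, and 4 and 10 without library B) behaved alike in this respect. Proteasome subunits were higher in 10 and lower in 3 of 35, clustered protocadherins in 11 and 2 of 23, ribosome biogenesis genes in 11 and 8 of 30, cytosolic heat shock proteins in 2 and 8 of 16 and glycolysis and hypoxia genes in 6 and 6 of 26. Of the lists in this paragraph, those of heat shock and of glycolysis and hypoxia held members changed by 2-fold. Leaving out 1 library at 6 h moved further counts by over 1.5 times. Without library B, immediate early factors called higher numbered 1, CaM kinase genes higher 4, adhesion genes called lower 9, ribosome biogenesis genes lower 5, protocadherins lower 1 and matrix genes lower 4. Without library A, calcium pump genes called higher numbered 3, AU-rich element genes lower 7, presynaptic genes lower 14, respiratory chain genes higher 32, proteasome genes higher 17, protocadherins higher 6, axon guidance genes higher 9, heat shock genes higher 4 and apoptosis genes higher 6.

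**Figure D4:**
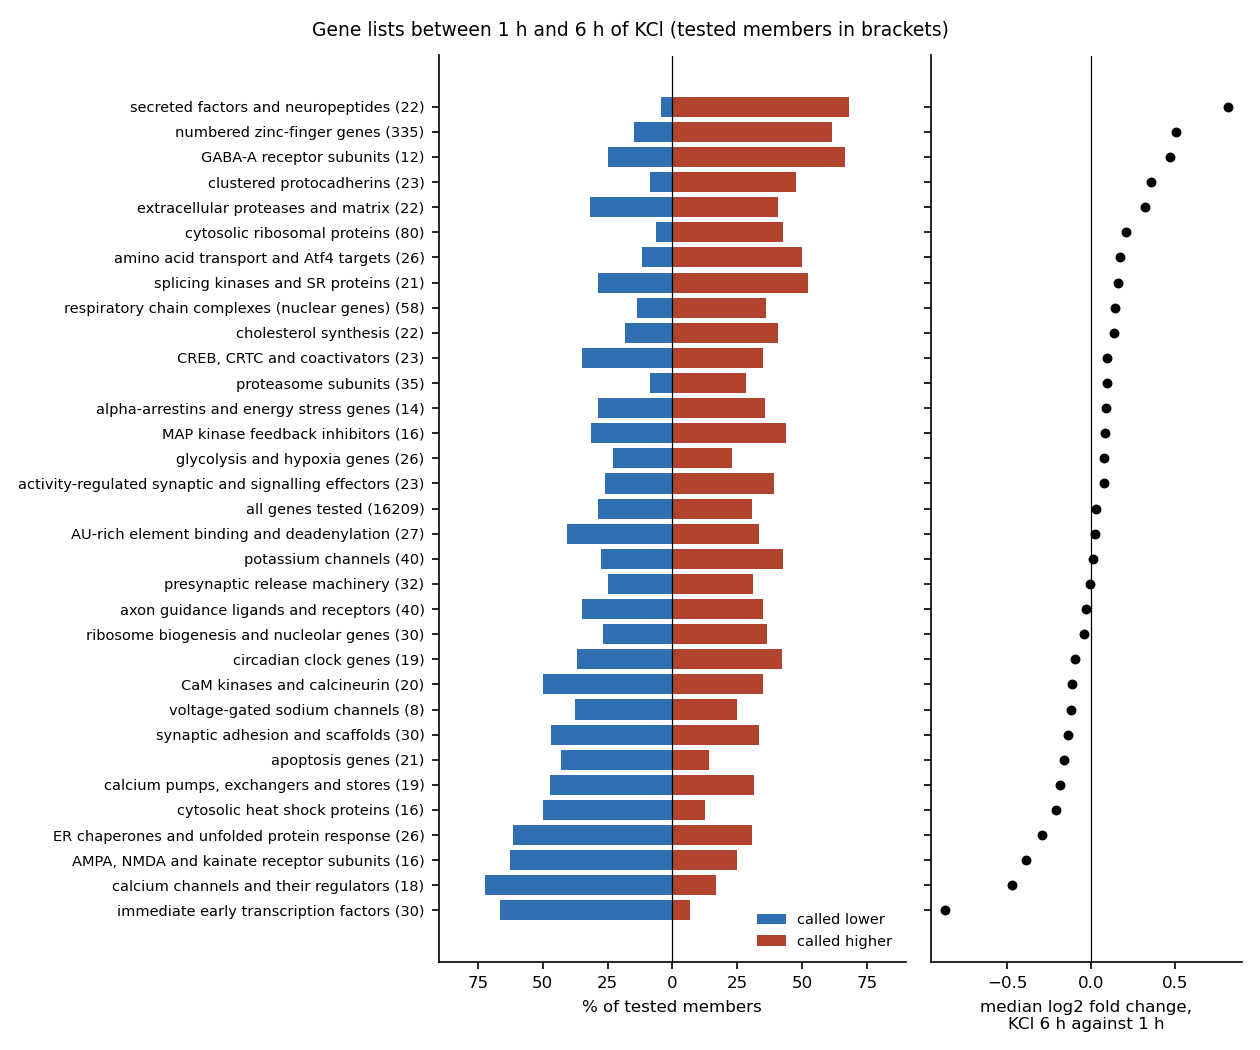
Bars on the left give the percent of tested members of each list called lower (blue) or higher (red) at 6 h against 1 h of KCl, with the number tested in brackets, and points on the right the median log2 fold change. Immediate early transcription factors lie lowest (-0.87) and secreted factors and neuropeptides highest (0.81), with all genes tested at 0.02.

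Markers of other cell types moved as well. Of 8 tested markers of astrocytes and radial glia, 7 were called lower and 0 higher, and the summed level of the 9 listed was 25104 to 27324 at 1 h, 17235 to 20565 at 6 h and 21771 to 26115 in the controls. Dividing-cell markers (4 of 6 lower) summed to 6391 to 7406 at 1 h and 3518 to 4059 at 6 h. Meningeal fibroblast markers (3 of 5 lower) summed to 4680 to 4746 at 1 h and 3503 to 3604 at 6 h. Markers of the oligodendrocyte lineage were higher in 4 and lower in 2 of 8 (4633 to 5152 at 1 h and 7044 to 7456 at 6 h), microglial markers summed to at most 255 in these 4 libraries with 1 of 7 called, and 0 of 4 tested endothelial and mural markers were called. Of the 8 general neuron markers 1 was called higher and 4 lower. Excitatory neuron markers were higher in 4 and lower in 1 of 6, inhibitory neuron markers in 2 and 3 of 6, progenitor markers in 1 and 1 of 6, and mitochondrially encoded genes in 3 and 0 of 13. The part of these cell types in the changes above was not tested.

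Of the 15 largest falls, 13 were in genes with a control mean under 50, and 9 of these 13 start less than 10 kb behind another tested gene on the same strand. A mean of at least 100 in the higher group was required, so a gene low in the controls could enter only through its 1 h level. These 15 genes therefore describe the choice and were not tested. Among protein-coding genes, 412 of 1027 fallen and 1863 of 13450 tested had a control mean under 50. Aoc3, an amine oxidase, was at 164 and 165 at 1 h, 4.92 and 11.6 at 6 h and 2.40 to 8.00 (median 4.26) in the controls (log2 fold change -4.26, SE 0.56, limma adjusted p = 1.92e-06). It lies on chromosome 11 of mm10 at 101330605 to 101341938, 0.903 kb downstream of Aoc2 on the same strand. Bhlha15, a factor of secretory cells, fell from 91.4 and 207 to 3.93 and 12.7 and starts 2.08 kb behind Lmtk2, a kinase gene with a control mean of 1733. Slc5a5, the iodide transporter, was at 131 and 182 and then 13.8 and 12.7. Pygm, the muscle glycogen phosphorylase, was at 228 and 283 and then 27.5 and 43.99 and starts 6.37 kb behind Sf1, a splicing factor gene. Lrrn4cl went from 227 and 277 to 30.5 and 37.04 (2.085 kb behind Bscl2), Evpl from 129.7 and 183 to 23.6 and 18.5 (7.09 kb behind Srp68) and Ly6g5b from 106 and 110.1 to 10.8 and 22.00 (0.768 kb behind Csnk2b). Hhatl (139.5 and 174 at 1 h and 9.83 and 10.4 at 6 h), Emilin3 (96.3 and 113 and 7.87 and 6.95) and Gpr62 (152 and 171 and 24.6 and 12.7) were also among them. Emilin3 differed from these genes in position, since the nearest tested gene behind which it starts, Chd6, lay 34.65 kb away. Of the other members described above, Fosb, Egr2 and Klf4 likewise had control means under 50 with no such gene within 10 kb. Jade2 and Zmat1 had higher control means.

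This position was then counted over all protein-coding genes, a count chosen after the values were seen. Of 1027 fallen protein-coding genes, 284 (27.7%) started less than 10 kb behind, or overlapped, another tested protein-coding gene on the same strand, as did 147 of 903 risen genes (16.3%) and 2532 of all 13450 tested (18.8%). For the nearest upstream gene on the opposite strand the shares were 23.5%, 18.1% and 22.1%. Among genes with a control mean under 50, the same-strand share was 36.4% of the 412 that fell and 22.3% of all 1863. In the 130 of these fallen genes with a mean of at least 50 at 1 h, a group picked in part by its 1 h level, 71 (54.6%) had a same-strand gene this close and 18 (13.8%) an opposite-strand one. Genes entered by a mean over all 18 libraries, so a gene low in the controls could enter through its 1 h level. Such a gene would then tend to fall, and the part of this filter in these shares was not tested. Over all 1863 genes with a control mean under 50, the share that fell went from 43.5% of 161 with a same-strand gene within 2 kb to 15.8% of 995 with none within 50 kb. By distance to an opposite-strand gene it lay between 11.8% and 36.7% with no order. The median log2 difference of these genes from the controls at 1 h went from 0.62 to -0.09 over the same distances, and at 6 h from -0.13 to -0.18. Over distances to an opposite-strand gene it lay between -0.12 and 0.08 at 1 h. Without library B at 6 h, the median log2 change from 1 h to 6 h was -0.90 within 2 kb on the same strand and -0.08 beyond 50 kb. Counts per gene do not show whether such reads began at the gene's own start, and whether strand was used in counting is not given in the sources used here.

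Gene span was related to direction at its ends. Of 888 protein-coding genes longer than 200 kb, 10.7% fell and 3.72% rose at least 2-fold, and their median log2 fold change was -0.20. Of 1451 genes under 5 kb, 7.58% fell and 9.03% rose, with a median of 0.08. The bins between had medians from 0.05 to -0.04 in order of length. Without library B at 6 h the medians of the longest and shortest bins were -0.14 and 0.04, and without library A -0.25 and 0.12. Genes over 200 kb had a median log2 difference from the controls of 0.13 at 1 h and -0.10 at 6 h.

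**Figure D5:**
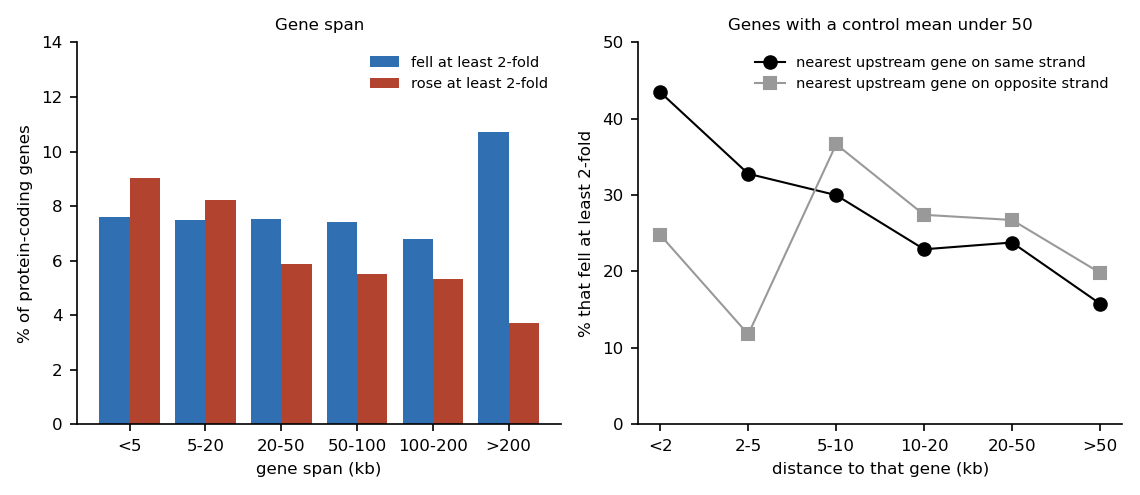
The left panel gives the percent of protein-coding genes that fell (blue) or rose (red) at least 2-fold in bins of gene span, with 10.7% and 3.72% above 200 kb. The right panel gives, for genes with a control mean under 50, the percent that fell by distance to the nearest upstream gene on the same strand (black circles, from 43.5% under 2 kb to 15.8% over 50 kb) and on the opposite strand (grey squares). Genes low in the controls could pass the filter on low values through their 1 h level.

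AU-rich elements in the 3′ UTR, which many short-lived mRNAs carry, were not more frequent in fallen genes than in all genes. The pentamer ATTTA stood in the longest annotated 3′ UTR of 674 of 1019 fallen genes (66.1%), 640 of 896 risen genes (71.4%) and 71.4% of 13369 tested genes with such a UTR. The overlapping nonamer ATTTATTTA stood in 6.48%, 8.59% and 6.82%. Fallen genes had a median 3′ UTR of 1003 bases against 1248 over all tested and 1258 in risen genes. Among the lists, ATTTA was present in 25 of 30 immediate early transcription factors and 18 of 23 activity-regulated effectors. For secreted factors and neuropeptides it was 17 of 22, and for MAP kinase inhibitors 15 of 16. The median number of ATTTA per kb was 1.80, 1.85, 3.02 and 1.94 in these lists in turn, against 1.35 over all tested protein-coding genes. ATTTATTTA was present in 3 of the 30, 5 of the 23, 2 of the 22 and 4 of the 16. It stood in genes of every course, as the windows of 30 bases below show for Fos and Csrnp1, which fell, for Ptgs2 and Plk3, which were not called, and for Gpr3 and Kcna1, which rose (mm10, sense strand, nonamer in capitals).
Fos: tgtgttttcaATTTATTTAttaagatggat
Csrnp1: aacactctgaATTTATTTAtttttttatgt
Ptgs2: tactgaccatATTTATTTAtttatgtgaag
Plk3: attaacagacATTTATTTAttgggatgtga
Gpr3: gagaaggtttATTTATTTAtttattattta
Kcna1: tcgtttttttATTTATTTAtttttgttttg
Fos is on chromosome 12 (85477101 to 85477130), Csrnp1 on chromosome 9 (119972068 to 119972097), Ptgs2 on chromosome 1 (150105788 to 150105817), Plk3 on chromosome 4 (117128701 to 117128730), Gpr3 on chromosome 4 (133209917 to 133209946) and Kcna1 on chromosome 6 (126641469 to 126641498). Csrnp1, Ptgs2, Plk3 and Fos were picked after their values were seen. Ptgs2, a prostaglandin synthase, was at 35.8 and 38.5 at 1 h and 31.5 and 17.4 at 6 h (log2 fold change -0.64, SE 0.50, limma adjusted p = 0.292), and Csrnp1 fell from 163 and 114 to 76.7 and 104.

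The palindrome TGACGTCA, the full cAMP response element that reads the same on both strands, was looked for in RefSeq promoter windows (GRCm38, 250 bases before to 50 after the start). It stood in 22 of 777 fallen genes (2.83%), 30 of 710 risen genes (4.23%) and 3.57% of 10539 tested protein-coding genes with such a window. Among members of the lists, it stood in 5 of 18 secreted factors and neuropeptides, 3 of 14 MAP kinase inhibitors, 2 of 15 activity-regulated effectors and 1 of 22 immediate early transcription factors. These are counts of letters in a window, and shorter forms of the element were not searched. The window of Cartpt, which rose, and that of Maff, an immediate early factor called lower (653 and 540.0 at 1 h and 329 and 263 at 6 h, picked after its values were seen), are shown with the palindrome in capitals, on the gene's strand.
Cartpt: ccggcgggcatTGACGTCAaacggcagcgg
Maff: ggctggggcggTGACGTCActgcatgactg
Cartpt is on chromosome 13 (99900777 to 99900806) and Maff on chromosome 15 (79347480 to 79347509).

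The same interval under BDNF, measured in 4 other libraries, gave a smaller set that overlapped in part with that of KCl. BDNF changed 5443 genes between 1 h and 6 h (33.6% of those tested), 15.8% higher and 17.7% lower, of which 246 rose (1.52%) and 352 fell (2.17%) at least 2-fold. Of the 1229 genes fallen with KCl, 80 also fell at least 2-fold with BDNF (6.51%, against 2.17% of all genes tested), while 28 rose (2.28%, against 1.52%). The 80 genes were 22.7% of the BDNF falls, and 7.58% of all genes tested fell with KCl. Of the 1136 risen genes, 61 also rose with BDNF (5.37%, against 1.52% of all genes tested), while 36 fell (3.17%, against 2.17%). The 61 genes were 24.8% of the BDNF rises, and 7.01% of all genes tested rose with KCl. The change itself differed between the stimuli for 7802 genes (48.1%) by the interaction term in limma, 4276 of them more positive (26.4%) and 3526 more negative (21.8%) with KCl, and by at least 2-fold 1361 (8.4%) and 1362 (8.4%). The list of immediate early transcription factors fell in both, with a median log2 fold change of -0.87 with KCl and -1.63 with BDNF.

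Individual genes set the stimuli apart. Acan rose with KCl but went from a mean of 134 at 1 h to 30.9 at 6 h of BDNF, and the difference of the log2 changes was 5.73 (limma adjusted p = 3.42e-08). Gpr3 had means of 355 and 98.95 with BDNF (difference 4.99). Kcna1, a delayed-rectifier channel, rose from 367 and 280.1 to 1174 and 1111 with KCl and fell from a mean of 2017 to 466 with BDNF (difference 3.94). Rem2, an inhibitor of calcium channels, rose from 377 and 253 to 578 and 656 with KCl and fell from 716 to 83.5 with BDNF (difference 4.08). Galnt9, which starts O-linked glycosylation, moved in the opposite way, falling from 762 and 745 to 296 and 186 with KCl and rising from 688 to 2135 with BDNF (difference -3.31). Fosb fell less with KCl than with BDNF, where the means were 827 and 6.81 (difference 2.70), while Egr2 fell from 3891 to 443 with BDNF (difference 0.12, SE 0.30, limma adjusted p = 0.798). The level of Egr2 at 1 h was far higher with BDNF than with KCl.

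Few promoter peaks were called different in accessibility over this interval. Of 15271 promoter peaks tested, 47 differed between 6 h and 1 h of KCl (0.308%, against 0.286% of all 56383 peaks), 10 higher and 37 lower, and the count was 22 without library A and 0 without library B at 1 h, and 5 without library B at 6 h. ATAC-seq library B at 6 h held 1.24 M reads in peaks and its partner 4.21 M. Of 945 promoter peaks of fallen genes 0 were called higher and 2 lower, and of 1011 of risen genes 1 and 3. The median log2 change was -0.05 at the promoters of fallen genes, -0.05 at those of risen genes and -0.02 over all. Whether promoter accessibility differed between fallen and risen genes was not tested, and at this depth a small change could go uncalled.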

How the data were processed

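RNA-seq and ATAC-seq were analysed from the deposited tables. Per the study's methods, the authors aligned single-end reads with TopHat2 to mm10 (GENCODE M16) and divided read counts per gene by DESeq2 size factors, so the deposited RNA values are a signal of normalised counts, in which 100% of values gave whole reads within a tolerance of 0.01. Neither the counting program nor the use of strand is given in the sources used here. For ATAC-seq, the methods describe Bowtie2 alignment, MACS2 peaks and DiffBind, with a LOESS correction of peak counts and normalisation by DESeq2. The ATAC-seq values deposited by the authors were treated here as read counts in peaks. The authors' tables of log2 fold changes and p-values were not used.

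Genes with a mean of at least 10 were tested on log2(normalised count + 1) with limma 3.58.1 in R 4.3.3, over all 18 RNA libraries with the controls as 1 level, at a Benjamini-Hochberg adjusted p below 0.1, two-sided. Fold changes on this scale understate the change of low genes. Peaks were tested with the quasi-likelihood test of edgeR 4.0.16 with LOESS offsets over all 18 ATAC-seq libraries. DESeq2 1.42.0 and edgeR on whole reads were alternatives. The scripts were tested on simulated data.

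Named genes were the 15 largest rises and falls with a mean of at least 100, up to 4 members of each list with the largest change, and the 5 largest differences from BDNF in each direction, and a few of these are not reported here. The members and lists were chosen with earlier results of these data known. The study calls the 2 libraries of a group biological replicates, and the labels do not say whether they came from separate cultures, so p-values measure the spread between these libraries, which may be technical.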

Additional observations from a re-analysis of the deposited data

Results flagged for a closer look

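The change from 1 h to 6 h differed between KCl and BDNF for 7802 genes by the interaction term in limma, and 10 named genes with the largest differences are given here as log2 change with KCl minus log2 change with BDNF. The difference was 5.73 for Acan, 4.99 for Gpr3, 4.49 for Spaca6, 4.08 for Rem2 and 3.94 for Kcna1, which all changed more positively with KCl. It was -4.04 for Aoc3, -3.69 for Bhlha15, -3.32 for Zmat1, -3.31 for Galnt9 and -3.21 for Hhatl, which all changed more negatively with KCl. Among the 6 controls of 33 genes checked for a library far from the others, 0 were found.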

How the results depend on the processing

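The count of 9656 genes lay between 6645 and 10956 under the other settings and between 8075 and 9490 when 1 KCl library was left out (4150 to 4981 higher, 3925 to 4509 lower). With no filter on low values, 1801 genes rose and 2348 fell at least 2-fold, and with a mean of at least 50, 651 fell. At an adjusted p below 0.01, the change differed between KCl and BDNF for 4691 genes, 5906 genes differed between KCl 1 h and controls, and 0 promoter peaks were called. TMM scaling gave 96 promoter peaks, and leaving out 1 library 0 to 41. The library letters were not shown to pair the samples (correlation of deviations between KCl 1 h and 6 h 0.0993, and over 36 pairs of groups -0.315 to 0.418). With the letter as a replicate block 9822 genes were called, of which 1138 rose and 1229 fell at least 2-fold. The change of Slc16a3, which was not called (log2 fold change -0.75), became 0.35 without library B at 1 h (limma adjusted p = 0.672) and -1.85 without library A. Of 2420 values of 153 named genes under these settings, 2380 kept their direction and side of the threshold, 37 lost and 2 gained a call. With 2 libraries a group and 10.4 M to 13.3 M reads in each KCl library, changes of genes near 10 normalised counts were poorly measured. The causes of these differences were not tested.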

Other observations

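Of 734 long non-coding RNAs tested, 157 (21.4%) rose and 108 (14.7%) fell at least 2-fold between 1 h and 6 h of KCl, against 6.71% and 7.64% of 13450 protein-coding genes. Without library B at 6 h, which stood apart in several non-coding RNAs, the shares were 19.5% and 13.9% of long non-coding RNAs and 7.09% and 7.80% of protein-coding genes. Pseudogenes rose in 1.39% and fell in 4.23% of 1727 cases. The differences between classes were not tested.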
